A study of Rattus norvegicus with 3 samples.

Results

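Capillary endothelial cells were examined in single-cell RNA libraries of diabetic rat skin wounds. They were chosen by their transcripts: a barcode had to hold a UMI (a counted RNA molecule) of at least 2 of the 7 endothelial genes Cdh5, Egfl7, Emcn, Kdr, Plvap, Vwf and Adgrl4, at least 1 UMI of Gpihbp1 or Rbp7, and no UMI of Sele, Selp, Ptprc, Pdgfra or Rgs5. Of 41236 barcodes that passed filtering in the 3 libraries, 977 met this rule. Of these, 517 came from the CO hydrogel library, 323 from the hydrogel library and 137 from the untreated library. All animals were male wild type SD rats made diabetic with streptozotocin at 65 mg/kg, with blood glucose over 16.7 mM, and the skin was sampled at 8 to 10 weeks of age. A full-thickness skin defect of 15 mm diameter was treated with a CO-releasing hyaluronic acid hydrogel, treated with a hyaluronic acid hydrogel, or left untreated, and the tissue of day 7 was digested with a kit sold for epidermis. Each group was 1 library, the number of animals behind a library is not given in the sources used here, and no difference between groups was therefore tested. Differences between libraries are given with 95% intervals, which cover counting error only.

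Capillaries are the exchange vessels of a tissue. GPIHBP1 is a surface protein of capillary endothelium that carries lipoprotein lipase to the vessel lumen, where the enzyme releases fatty acids from circulating lipoproteins. RBP7 is a small intracellular retinoid-binding protein found in capillary endothelium of fat and muscle, and FABP4 carries fatty acids inside the same cells. In a healing wound, capillaries sprout from existing vessels behind tip cells, which express Dll4, Esm1, Apln and Kcne3, while E-selectin (Sele) and P-selectin (Selp) mark the venules through which leukocytes enter.

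Capillary barcodes had a median of 3341 UMIs in the CO hydrogel, 4569 UMIs in the hydrogel and 5324 UMIs in the untreated library, and their summed UMIs were 2590380, 2256667 and 1163947 in the same libraries. Some barcode sequences occurred in more than 1 library: 453 in CO hydrogel and hydrogel, 581 in CO hydrogel and untreated, and 345 in hydrogel and untreated. Of the capillary barcodes, 23 in the CO hydrogel, 12 in the hydrogel and 8 in the untreated library had such a sequence. With all shared sequences left out, an alternative added after the data were seen, capillary barcodes made up 3.48%, 2.25% and 1.14% of the CO hydrogel, hydrogel and untreated libraries.

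With all barcodes, they were 3.46% of the CO hydrogel library (517 of 14925, exact binomial 95% interval 3.18% to 3.77%), 2.25% of the hydrogel library (323 of 14346, 2.01% to 2.51%) and 1.15% of the untreated library (137 of 11965, 0.962% to 1.35%). The intervals of the 3 libraries did not overlap. As a share of endothelial barcodes, meaning those with 2 of the 7 endothelial genes and no UMI of Ptprc, Pdgfra or Rgs5, they were 50.2% in the CO hydrogel (517 of 1029, 47.1% to 53.3%), 44.6% in the hydrogel (323 of 725, 40.9% to 48.3%) and 47.2% in the untreated library (137 of 290, 41.4% to 53.2%). By this measure the intervals of the 3 libraries overlapped. The libraries also differed in neutrophil-like barcodes, which held at least 2 of S100a8, S100a9, Csf3r and Il1r2. Without them, capillary barcodes were 3.77% of the CO hydrogel (3.45% to 4.11%), 3.09% of the hydrogel (2.74% to 3.48%) and 2.90% of the untreated library (2.40% to 3.47%), and the intervals of every pair of libraries overlapped. With neutrophil-like barcodes defined by Csf3r and Il1r2 together, a definition added after the data were seen, the shares were 3.53%, 2.51% and 1.34% in the CO hydrogel, hydrogel and untreated libraries. The order of the libraries was the same under each definition, but the distance between them was not. After each barcode was thinned to 1000 UMIs, which left out 1308 CO hydrogel, 997 hydrogel and 610 untreated barcodes, the shares of all barcodes were 3.32%, 1.95% and 0.863%.

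**Figure D1:**
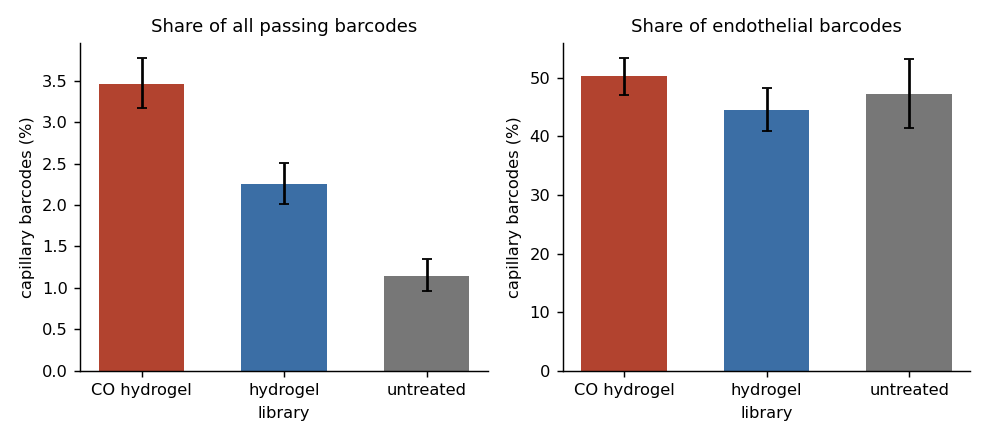
Capillary barcodes as a percentage of all passing barcodes (left) and of endothelial barcodes (right) in the 3 libraries; bars are the shares and error bars the exact binomial 95% intervals of counting error. The share of all barcodes was 3.46% in the CO hydrogel, 2.25% in the hydrogel and 1.15% in the untreated library, while the shares of endothelial barcodes lay between 44.6% and 50.2% with overlapping intervals.

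The genes that chose the barcodes are given as a description. Levels are CPM, the UMIs of a gene per 1000000 UMIs summed over the capillary barcodes of a library. Gpihbp1 stood at 1555 CPM in the CO hydrogel, 1375 CPM in the hydrogel and 1435 CPM in the untreated library. Rbp7 stood at 1629.9 CPM in the CO hydrogel, 1499.6 CPM in the hydrogel and 686 CPM in the untreated library. Cdh5, the cadherin of endothelial junctions, was at 980.2 CPM in the CO hydrogel, 969 CPM in the hydrogel and 976 CPM in the untreated library, and Kdr, the main VEGF receptor, was at 318 CPM in the CO hydrogel, 356 CPM in the hydrogel and 307 CPM in the untreated library. Cdh5, Kdr and Gpihbp1 were thus near the same level in each library, while Rbp7 was lowest in the untreated one. A UMI of Gpihbp1 or Rbp7 was also found in barcodes of other cell types, in 7.68% to 20.1% of them by class in the CO hydrogel, 5.39% to 10.7% in the hydrogel and 1.94% to 17.0% in the untreated library, against 61.8%, 61.8% and 72.8% of endothelial barcodes. The median depths of those classes ran from 3056 to 9786 UMIs in the CO hydrogel, 2632 to 12972 in the hydrogel and 1216 to 15929 in the untreated library, and endothelial barcodes had medians of 3218, 4392 and 5629.5 UMIs. At the edge of the rule, 71 CO hydrogel, 43 hydrogel and 24 untreated capillary barcodes held exactly 2 of the 7 endothelial genes, with median depths of 1083, 1574 and 1002 UMIs. Just outside it, 159, 67 and 34 barcodes of these libraries held 1 of them and met every other condition, with median depths of 1170, 1405 and 1130 UMIs. A further 119, 125 and 74 barcodes met every condition except that they held a UMI of Sele or Selp.

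Of the other capillary markers, Rgcc, a cell cycle regulator of capillary endothelium, stood at 411 CPM in the CO hydrogel, 253 CPM in the hydrogel and 111 CPM in the untreated library. The water channel Aqp1 was at 657 CPM in the CO hydrogel, 450.2 CPM in the hydrogel and 339 CPM in the untreated library. Both were highest in the CO hydrogel and lowest in the untreated library. Ramp3, a co-receptor of adrenomedullin on the same marker list, was instead highest in the hydrogel library, at 47.1 CPM in the CO hydrogel, 119.6 CPM in the hydrogel and 80.8 CPM in the untreated library. Ca4, a carbonic anhydrase of capillaries, was low, at 8.11 CPM in the CO hydrogel, 4.43 CPM in the hydrogel and 27.5 CPM in the untreated library, where neutrophil-like barcodes held 487 CPM of it. Cd300lg, another capillary marker, had 2 UMIs in the CO hydrogel library and none in the hydrogel and untreated libraries, where a count of 0 allows up to 1.33 and 2.58 CPM. Markers of T or NK cells were near 0: the 9 markers summed to 8.88 CPM in the CO hydrogel, 11.1 CPM in the hydrogel and 1.72 CPM in the untreated library, and Cd3e and Nkg7 had no UMI in any of the 3. The 6 mast cell markers summed to 95.7, 54.5 and 45.5 CPM in these libraries, of which Kit made up 70.3 CPM in the CO hydrogel, 49.6 CPM in the hydrogel and 45.5 CPM in the untreated library.

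Barcodes were not uniform with respect to the pair of markers. Both Gpihbp1 and Rbp7 were found in 275 CO hydrogel (53.2%), 196 hydrogel (60.7%) and 76 untreated (55.5%) capillary barcodes. Gpihbp1 alone was found in 171 (33.1%), 85 (26.3%) and 47 (34.3%) of those libraries, and Rbp7 alone in 71 (13.7%), 42 (13.0%) and 14 (10.2%). Most UMIs of the arterial connexin gene Gja5 lay in barcodes with Rbp7 alone, described here without a test because the split followed the marker genes. Its level was 93.1, 300.4 and 267 CPM in Rbp7-only barcodes of the CO hydrogel, hydrogel and untreated libraries, against 3.52, 0 and 3.42 CPM in Gpihbp1-only barcodes and 2.32, 5.68 and 2.46 CPM in barcodes with both. A Gja5 UMI was present in 12 of 71, 13 of 42 and 2 of 14 Rbp7-only barcodes, and 1 untreated barcode held 12 of the 16 UMIs in its Rbp7-only barcodes. Unc5b, a netrin receptor of arterial and tip cells, stood at 199.6, 309 and 401 CPM in Rbp7-only barcodes, 51.0, 89.6 and 75.3 CPM in Gpihbp1-only barcodes and 33.1, 60.0 and 55.4 CPM in barcodes with both. Cldn5, a tight junction claudin, stood at 522, 1166 and 1136 CPM, 148, 82.9 and 47.9 CPM and 355, 229 and 51.7 CPM in the same subsets. In all 3 libraries Gja5, Gja4, Unc5b and Cldn5 were highest in the Rbp7-only barcodes.

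Fabp4 and C1qtnf9 were highest in barcodes with both markers. Fabp4 stood at 18636, 14297 and 8988 CPM in barcodes with both markers of the CO hydrogel, hydrogel and untreated libraries, 2811, 2691 and 1782 CPM in Gpihbp1-only barcodes and 4518, 3379 and 2423 CPM in Rbp7-only barcodes. C1qtnf9, a secreted C1q-related factor, stood at 495, 227 and 191 CPM in barcodes with both and 94.9, 56.0 and 65.0 CPM in Gpihbp1-only barcodes, and in Rbp7-only barcodes it had 14 UMIs in the CO hydrogel library and none in the hydrogel and untreated libraries. Aplnr, the apelin receptor of veins and capillaries, stood at 465, 343 and 367 CPM, 379.7, 307 and 318 CPM and 136, 83.9 and 66.8 CPM in barcodes with both, Gpihbp1-only and Rbp7-only barcodes. The subsets differed in depth, with medians of 4402, 5478.5 and 8516.5 UMIs for both markers, 2148, 3773 and 3086 UMIs for Gpihbp1 alone and 2638, 3518 and 2335.5 UMIs for Rbp7 alone, and the part of depth in this split was not tested. Since few Rbp7-only barcodes held Gja5, they are called by their rule and not by a vessel type.

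A few Rbp7-only barcodes carried lymphatic transcripts. Ccl21, the chemokine of lymphatic vessels, had 367 UMIs in 2 Rbp7-only barcodes of the CO hydrogel library, 306 of them in 1 barcode, 82 UMIs in 1 barcode of the hydrogel library and 457 UMIs in 1 barcode of the untreated library. Outside the Rbp7-only barcodes Ccl21 had 5 UMIs in the CO hydrogel library and none in the others. Mmrn1, a lymphatic multimerin, was found in the Rbp7-only barcodes and in no other capillary barcode, with 7 UMIs in the CO hydrogel, 13 in the hydrogel and 21 in the untreated library. The lymphatic genes Lyve1 and Prox1 were not confined to Rbp7-only barcodes. A Lyve1 UMI was found in 17 of 171, 7 of 85 and 16 of 47 Gpihbp1-only barcodes of the CO hydrogel, hydrogel and untreated libraries. It was found in 18 of 275, 16 of 196 and 15 of 76 barcodes with both markers and in 6 of 71, 2 of 42 and 3 of 14 Rbp7-only barcodes. In the hydrogel library 1 Gpihbp1-only barcode held 10 of the 13 Prox1 UMIs. No capillary barcode held both Gja5 and Ccl21.

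**Figure D2:**
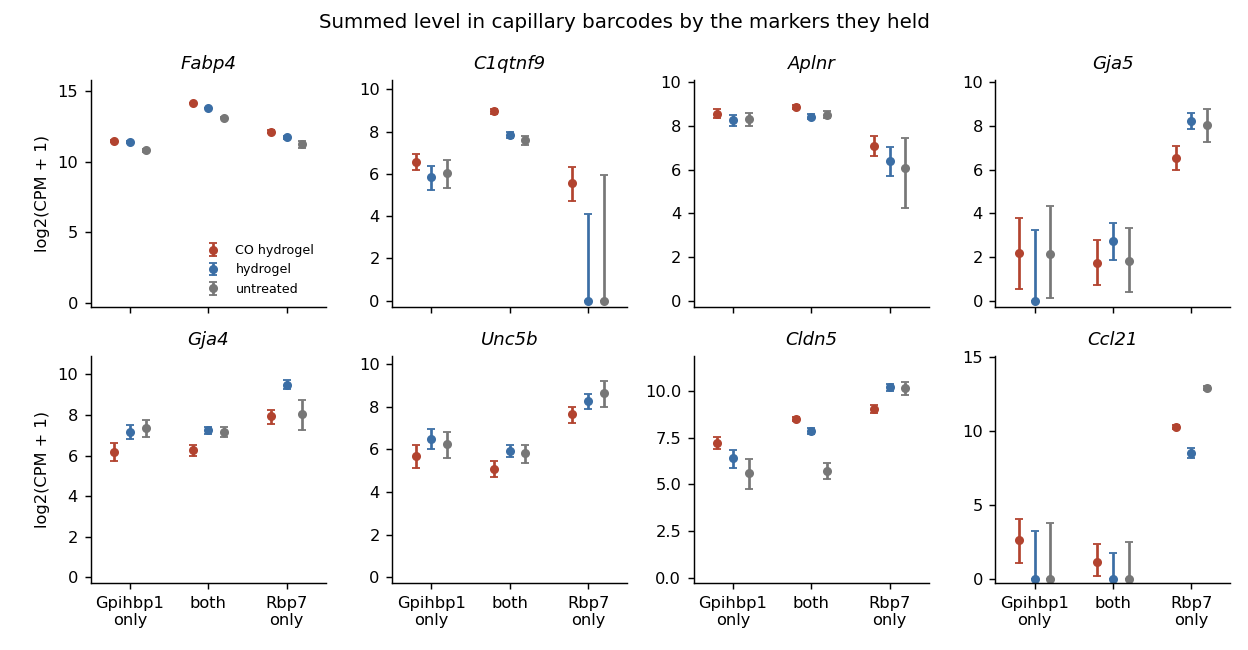
Level of 8 genes, as log2(CPM + 1), in capillary barcodes with Gpihbp1 alone, with both markers and with Rbp7 alone, for the CO hydrogel, hydrogel and untreated libraries; points are summed levels and error bars exact Poisson 95% intervals. Fabp4 and C1qtnf9 were highest in barcodes with both markers, and Gja5, Gja4, Unc5b, Cldn5 and Ccl21 in barcodes with Rbp7 alone.

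Capillary barcodes were next set against endothelial barcodes with a UMI of Sele or Selp, of which there were 273 in the CO hydrogel, 232 in the hydrogel and 108 in the untreated library, with deeper medians of 4733, 7011 and 8344.5 UMIs. Of these Sele or Selp barcodes, 119, 125 and 74 also held a UMI of Gpihbp1 or Rbp7. Here the 3 libraries, which differed in treatment, served as replicates and both classes came from the same libraries, so the fit held the library as a block. Genes were tested on summed UMIs with edgeR's quasi-likelihood test, with Benjamini-Hochberg adjustment over 8632 genes, leaving out the 14 genes that define the classes. At an adjusted p under 0.05, 302 genes were higher in capillary barcodes, 3.5% of those tested, and 287 were lower, 3.32%, together 6.82%. Of these, 292 and 284 had the same direction in all 3 libraries. Passing a test on the same 3 libraries largely brings this about, so it is no separate support. With barcodes holding Gpihbp1 or Rbp7 left out of the Sele or Selp class, 365 of 7034 genes were higher and 378 lower. In the full comparison without the library block, 44 genes were higher and 46 lower. Markers of other cells moved with this contrast: 3 of 5 measured neutrophil, 3 of 10 macrophage, 2 of 9 fibroblast, 3 of 8 mural and 2 of 3 red cell markers were higher in capillary barcodes and none lower, and without the library block none of these passed. Neutrophil markers summed to 1103, 1099.9 and 1345 CPM in capillary barcodes of the CO hydrogel, hydrogel and untreated libraries, against 936, 408 and 351 CPM in Sele or Selp barcodes. Fibroblast markers summed to 7324, 1143 and 835 CPM, against 3476, 1181 and 959 CPM in Sele or Selp barcodes. Red cell markers, with a median log2 fold change of 4.06, summed to 115, 31.9 and 3757 CPM, against 64.5, 8.26 and 8.05 CPM. The part of these markers in the changes of arterial, sprouting, venous and leukocyte genes was not tested.

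Arterial genes rose in capillary barcodes: 9 of 13 measured members of the list passed the test higher and none lower, with a median log2 fold change of 1.29, against 0.01 over all genes tested. Gja5 stood at 13.1, 34.1 and 16.3 CPM in capillary barcodes of the CO hydrogel, hydrogel and untreated libraries, against 0.533, 5.16 and 0 CPM in Sele or Selp barcodes of the same libraries. The capillary libraries all lay above the Sele or Selp libraries, and the log2 fold change was 3.37 ± 0.45 (SE), adjusted p = 6.3e-04 in edgeR's quasi-likelihood test with Benjamini-Hochberg adjustment. Gja4, another connexin of arterial endothelium, stood at 94.2, 206 and 154 CPM in capillary barcodes of the CO hydrogel, hydrogel and untreated libraries, against 26.1, 49.6 and 50.5 CPM in Sele or Selp barcodes of the same libraries, a log2 fold change of 1.84. Cxcl12, the ligand of CXCR4, stood at 395, 749 and 461 CPM in capillary barcodes of the CO hydrogel, hydrogel and untreated libraries, against 83.2, 123 and 259.9 CPM in Sele or Selp barcodes of the same libraries, a log2 fold change of 1.88. Unc5b (3.07), Fbln5 (1.79), Dll4 (1.34), Efnb2 (1.29), Sox17 (0.74) and Mecom (0.43) also passed, while Edn1 at -0.80, Ltbp4, Jag1 and Sema3g did not. Since Rbp7-only barcodes held most Gja5, the comparison was repeated without them, an alternative added after the data were seen. Then 7 of 12 arterial genes passed higher and 2 lower, with a median of 0.93. Gja5 no longer passed the filter on low counts, Unc5b stood at a log2 fold change of 2.62, Gja4 at 1.55 and Dll4 at 1.29, and Mecom did not pass. Without the library block 4 of the 13 arterial genes passed, and Gja5 did not, with an adjusted p of 0.102 in edgeR's test.

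Genes of tip cells and sprouting rose as well, with 10 of 15 measured members higher, 1 lower and a median log2 fold change of 1.34. Esm1, a proteoglycan secreted by tip cells, stood at 57.9, 149 and 145 CPM in capillary barcodes of the CO hydrogel, hydrogel and untreated libraries, against 21.3, 59.4 and 8.05 CPM in Sele or Selp barcodes of the same libraries. It was higher in the capillary barcodes of each library, with a log2 fold change of 1.92 ± 0.33 (SE), adjusted p = 0.004 in edgeR's quasi-likelihood test with Benjamini-Hochberg adjustment. The call of Esm1 was lost in DESeq2, with an adjusted p of 0.170, and without the library block in edgeR, with an adjusted p of 0.231. Pgf, a ligand of the VEGF receptor FLT1, stood at 189.5, 173 and 85.9 CPM in capillary barcodes of the CO hydrogel, hydrogel and untreated libraries, against 26.7, 62.5 and 32.2 CPM in Sele or Selp barcodes of the same libraries, a log2 fold change of 1.89. Cxcr4, the chemokine receptor of tip cells, stood at 255, 245 and 196 CPM in capillary barcodes of the CO hydrogel, hydrogel and untreated libraries, against 84.3, 57.8 and 46.1 CPM in Sele or Selp barcodes of the same libraries, a log2 fold change of 1.89. The potassium channel subunit Kcne3 (1.75), the basement membrane genes Nid2 (2.0) and Lama4 (1.42), the vasodilator peptide Adm (1.08) and the adhesion molecule Mcam (0.45) passed too, and Dll4 and Unc5b belong to this list and the arterial one. Ptn, a heparin-binding growth factor, fell, with a log2 fold change of -1.31. Apln, the apelin peptide of tip cells, had a log2 fold change of 0.23 and Angpt2, the vessel-destabilising ligand of TIE2, 0.43, and neither passed the test. Without Rbp7-only barcodes 11 of the 15 passed higher and 2 lower, and without the library block 4 passed higher and none lower.

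Venous genes fell in part, and genes of leukocyte entry moved in both directions. On the venous list 6 of 11 fell and none rose, with a median log2 fold change of -0.72. Without the library block 3 of the 11 passed, namely Tmem252, Vcam1 and Il1r1. Tmem252 stood at 25.5, 15.5 and 15.5 CPM in capillary barcodes of the CO hydrogel, hydrogel and untreated libraries, against 148, 135 and 66.6 CPM in Sele or Selp barcodes of the same libraries, a log2 fold change of -2.68 ± 0.17 (SE), adjusted p = 1.4e-06 in edgeR's quasi-likelihood test with Benjamini-Hochberg adjustment. Vcam1, the adhesion molecule for lymphocytes and monocytes, stood at 18.1, 27.0 and 18.0 CPM in capillary barcodes of the CO hydrogel, hydrogel and untreated libraries, against 123, 214 and 81.3 CPM in Sele or Selp barcodes of the same libraries, a log2 fold change of -2.75. Nr2f2, the transcription factor of venous identity, had -0.96, Il1r1 -1.38, Csf2rb -0.83 and Lrg1 -0.72. Among 17 genes of leukocyte adhesion and chemokines, 6 fell and 4 rose, with a median log2 fold change of -0.26. The list's median ratio by library was -0.05 in the CO hydrogel, -0.62 in the hydrogel and 0.17 in the untreated library, and without the library block 3 fell and none rose. Icam1, the ligand of leukocyte integrins, stood at 168, 144 and 94.5 CPM in capillary barcodes of the CO hydrogel, hydrogel and untreated libraries, against 635, 709.9 and 417 CPM in Sele or Selp barcodes of the same libraries, a log2 fold change of -2.14. The chemokines Ccl7 (-1.76), Ccl2 (-1.05) and Cxcl1 (-0.75) fell, and Cxcl12, Cxcl2, Cd34 and Podxl rose. Vcam1, Nr2f2, Il6, Ccl2, Ccl7 and Cxcl2 were over 5 times higher in another cell class of at least 1 library, and the part of RNA from other cells was not tested.

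By the rule for named genes, the 10 largest increases were Ccl21, Cldn5, Gja5, Clic5, Unc5b, Egfl8, Arc, Btnl9, Sncaip and Camk2b, with log2 fold changes from 8.02 to 2.14. That of Ccl21 rested on the few barcodes described above, and without Rbp7-only barcodes Ccl21 did not pass the filter on low counts. Cldn5 stood at 329, 294 and 107 CPM in capillary barcodes of the CO hydrogel, hydrogel and untreated libraries, against 18.7, 31.5 and 16.8 CPM in Sele or Selp barcodes of the same libraries. Every capillary value of Cldn5 lay above every Sele or Selp value. Btnl9, a butyrophilin-like gene of capillary endothelium, stood at 17.4, 21.7 and 6.87 CPM in capillary barcodes of the CO hydrogel, hydrogel and untreated libraries, against 2.13, 4.65 and 2.93 CPM in Sele or Selp barcodes of the same libraries. The named decreases included Rasa4, Tmem252, Slco2a1, Bmp4, Csf3, Rasal1, Fam124a, Tll1 and Chn2, from -3.08 to -2.14. Slco2a1, the prostaglandin transporter, stood at 18.5, 26.1 and 18.9 CPM in capillary barcodes of the CO hydrogel, hydrogel and untreated libraries, against 126, 139 and 122 CPM in Sele or Selp barcodes of the same libraries. Bmp4, a secreted growth factor of the TGF-beta family, stood at 24.7, 16.4 and 18.9 CPM in capillary barcodes of the CO hydrogel, hydrogel and untreated libraries, against 141, 132 and 58.6 CPM in Sele or Selp barcodes of the same libraries. Csf3, which encodes the granulocyte growth factor G-CSF, stood at 37.8, 109 and 58.4 CPM in capillary barcodes of the CO hydrogel, hydrogel and untreated libraries, against 273, 531 and 209 CPM in Sele or Selp barcodes of the same libraries. The groups did not overlap for Slco2a1, Bmp4 or Csf3.

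Other lists changed in part. Of 11 measured genes of the fatty acid list 2 rose, Tcf15 (1.16) and Acsl1 (1.18), and Meox2 (-1.05) fell, with a median log2 fold change of 0.007. Fabp4 stood at 13522, 10907 and 6841 CPM in capillary barcodes of the CO hydrogel, hydrogel and untreated libraries, against 10892, 10027 and 14994 CPM in Sele or Selp barcodes of the same libraries. The groups overlapped for Fabp4, and its log2 fold change of -0.24 did not pass the test. The Sele or Selp class here included its barcodes with a UMI of Gpihbp1 or Rbp7, counted above. Of 11 general capillary markers, Podxl, Sparcl1, Btnl9 and Rgcc (1.56) rose and Aqp1 (-0.73) fell, and none passed without the library block. Of 16 basement membrane genes 6 rose, among them the collagen IV chain Col4a1 at 4947, 5116 and 5558 CPM in capillary barcodes of the CO hydrogel, hydrogel and untreated libraries, against 2777, 3585 and 4211 CPM in Sele or Selp barcodes of the same libraries. Of 11 Notch pathway genes 4 rose, namely the ligand Dll4, the receptors Notch1 (0.46) and Notch4 (1.02) and the target Nrarp (0.63). Of 16 immediate early genes, which respond to dissociation, 5 fell, with log2 fold changes between -0.71 for Atf3 and -0.37 for Zfp36. None of 14 proliferation genes passed in the edgeR fit with the library block; 4 had an unadjusted p under 0.05 in edgeR, and DESeq2 also called none.

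Against the remaining endothelial barcodes, which held none of Gpihbp1, Rbp7, Sele and Selp (239 in the CO hydrogel, 170 in the hydrogel and 45 in the untreated library, with shallower medians of 1629, 1910 and 1766 UMIs), capillary barcodes were higher in fatty acid genes and lower in lymphatic ones. Of 7455 genes tested in the same way, 150 were higher, 2.01%, and 238 were lower, 3.19%, together 5.2%, at an adjusted p under 0.05. Without the library block only 4 were higher and 3 lower. Without the CO hydrogel library 45 genes were higher, and without the hydrogel library 81 were higher and 132 lower. Of the fatty acid list 5 of 11 rose and none fell, with a median log2 fold change of 0.69, against 0.01 over all genes. Fabp4 stood at 13522, 10907 and 6841 CPM in capillary barcodes of the CO hydrogel, hydrogel and untreated libraries, against 1910.3, 1661 and 761 CPM in other endothelial barcodes of the same libraries. The groups were far apart, with a log2 fold change of 2.91 ± 0.12 (SE), adjusted p = 1.0e-05 in edgeR's quasi-likelihood test with Benjamini-Hochberg adjustment. Scarb1, a scavenger receptor for lipoproteins, stood at 510.3, 321 and 317 CPM in capillary barcodes of the CO hydrogel, hydrogel and untreated libraries, against 199.8, 129 and 120.2 CPM in other endothelial barcodes of the same libraries, a log2 fold change of 1.37. Tcf15, a transcription factor that with MEOX2 drives fatty acid uptake in heart capillaries of mice, stood at 91.9, 90.8 and 89.4 CPM in capillary barcodes of the CO hydrogel, hydrogel and untreated libraries, against 15.1, 25.1 and 22.9 CPM in other endothelial barcodes of the same libraries, a log2 fold change of 2.19. Fabp5 (0.92) and Pparg (1.30), the nuclear receptor that controls Fabp4, passed as well. Without the library block 2 of the 11 passed.

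The largest increase was C1qtnf9, at 355, 171 and 149 CPM in capillary barcodes of the CO hydrogel, hydrogel and untreated libraries, against 21.9, 14.3 and 11.4 CPM in other endothelial barcodes of the same libraries, a log2 fold change of 3.85. Sox7, an endothelial transcription factor, stood at 149.8, 164 and 165 CPM in capillary barcodes of the CO hydrogel, hydrogel and untreated libraries, against 46.5, 50.1 and 28.6 CPM in other endothelial barcodes of the same libraries, a log2 fold change of 1.85. The other named increases were Cfap45, Tcf15, Cyp4f5, Car2, Rtp4, Spry1 and RT1-T24-4, between 2.46 and 1.72. Both apelin and its receptor rose: the receptor Aplnr stood at 408, 310.2 and 339 CPM in capillary barcodes of the CO hydrogel, hydrogel and untreated libraries, against 151, 156 and 80.1 CPM in other endothelial barcodes of the same libraries, a log2 fold change of 1.43, and the ligand Apln at 289.9, 165 and 117 CPM in capillary barcodes of the CO hydrogel, hydrogel and untreated libraries, against 159, 46.6 and 5.72 CPM in other endothelial barcodes of the same libraries, a log2 fold change of 1.53. Of the 12 VEGF, Tie and apelin genes measured, Pgf, Nrp1 and Flt1 also rose and Vegfa fell. Caveolae genes Cav1 (1.05), Cav2 (0.80), Cavin3 (1.01) and Ehd2 (0.78) rose, 4 of 11 measured, and so did 6 of 16 basement membrane genes, with Col4a1 at 1.03.

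Of 9 lymphatic genes 7 fell, with a median of -3.51. Prox1, the transcription factor of lymphatic identity, stood at 1.16, 5.76 and 2.58 CPM in capillary barcodes of the CO hydrogel, hydrogel and untreated libraries, against 50.6, 48.3 and 217 CPM in other endothelial barcodes of the same libraries, a log2 fold change of -4.58 ± 0.49 (SE), adjusted p = 0.002 in edgeR's quasi-likelihood test with Benjamini-Hochberg adjustment. Mmrn1 had -4.87, Lyve1 -3.79, Pdpn -3.34 and Ccl21 -3.51. None of these 7 passed without the library block, where the median was -4.05. Against Sele or Selp barcodes the lymphatic list did not fall as a whole. Of 7 genes measured there, Lyve1, Ccl21 and Flt4 rose and Fgl2 fell, with a median log2 fold change of 0.79. Against other endothelial barcodes no arterial gene rose and 1 of 13, Ltbp4, fell. The median log2 fold change of the arterial list there was -0.32, with 4 above 0 and 9 below. The rise of arterial genes was thus seen only against Sele or Selp barcodes. Of 15 genes of tip cells and sprouting only 3 rose there, namely Adm, Apln and Pgf. None of them fell, and the median log2 fold change was 0.28, with 9 above 0 and 6 below. Markers of other cells moved with this contrast: 8 of 10 macrophage, 6 of 9 fibroblast and 4 of 4 measured MHC class II genes were lower in capillary barcodes. The 10 macrophage markers summed to 713, 641 and 335 CPM in capillary barcodes of the CO hydrogel, hydrogel and untreated libraries, against 1675, 3106 and 761 CPM in other endothelial barcodes. The part of these markers in the result was not tested.

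**Figure D3:**
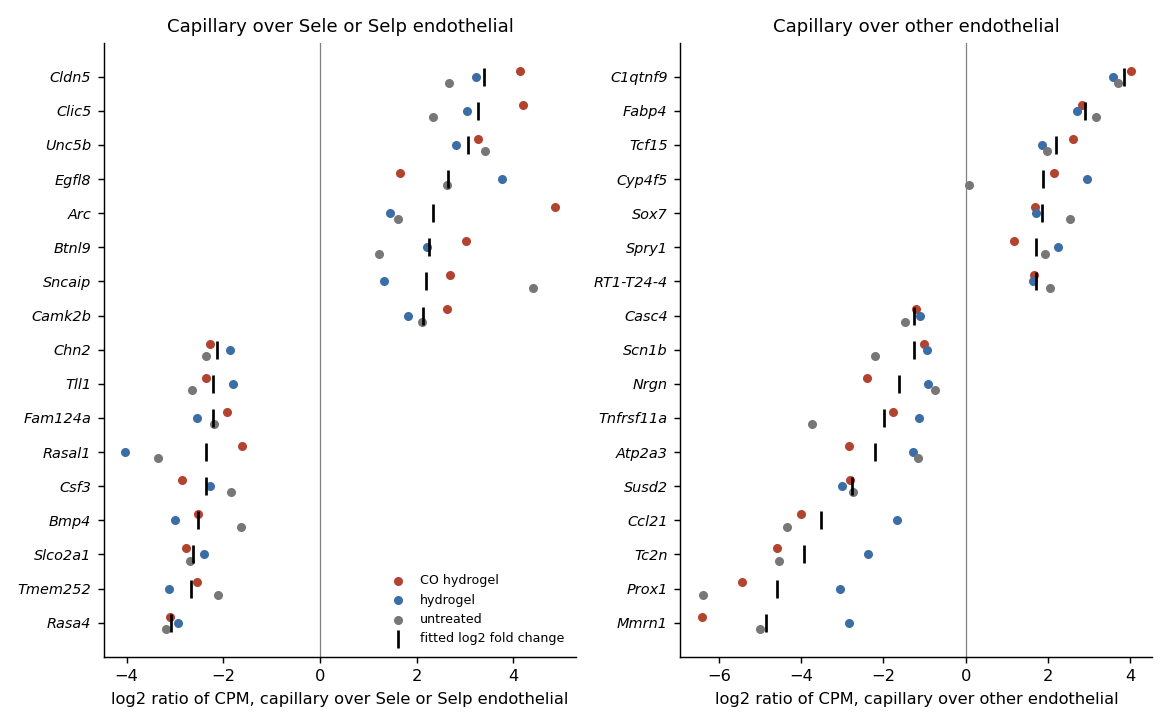
Log2 ratio of CPM in capillary barcodes over Sele or Selp barcodes (left) and over other endothelial barcodes (right) for named genes; dots are the CO hydrogel, hydrogel and untreated libraries, drawn for each gene from top to bottom, and black bars the fitted log2 fold change. Genes without a UMI in 1 of the libraries (Ccl21 and Gja5 left; Cfap45, Car2 and Rtp4 right) are not drawn. All 3 libraries lie on the same side of 0 for each gene drawn, as the rule for named genes requires.

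Between libraries, interferon genes and transcripts of other cell types differed. Genes were compared by CPM over those with at least 100 UMIs in the pair, and at least 2-fold was the criterion. The CO hydrogel library was higher than the untreated one for 285 of 4382 genes, 6.5%, and lower for 50, 1.14%, together 7.64%. Against the hydrogel library the CO hydrogel library was higher for 152 of 5217 genes, 2.91%, and lower for 40, 0.767%, together 3.68%. The hydrogel library was higher than the untreated one for 101 of 4086 genes, 2.47%, and lower for 22, 0.538%, together 3.01%. Median log2 ratios over all genes were 0.06, -0.05 and 0.10 in these comparisons. Many of the genes past 2-fold had a level over 5 times higher in some other cell class of the same libraries: 185 of 285 (64.9%), 136 of 152 (89.5%) and 53 of 101 (52.5%) of the higher genes and 20 of 50 (40%), 18 of 40 (45%) and 15 of 22 (68.2%) of the lower ones. Over all genes compared these shares were 7.21%, 6.19% and 5.16%. Fibroblast markers summed to 7324 CPM in CO hydrogel, 1143 CPM in hydrogel and 835 CPM in untreated capillary barcodes, with all 9 markers at least 2-fold higher in the CO hydrogel library than in either other library and none at 0. Mural markers summed to 496, 152 and 62.7 CPM and keratinocyte markers to 1328, 715 and 57.6 CPM in the same libraries. Red cell markers summed to 115, 31.9 and 3757 CPM, and 84.5% to 87.0% of the untreated UMIs of Hba-a1, Hba-a2 and Hbb lay in 1 barcode each. The part of these transcripts in the ratios was not tested. Genes over 5 times higher elsewhere were left out of those named for the largest ratios. Members of the gene lists are named below without this exclusion.

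Part of the interferon response list was higher in either hydrogel library than in the untreated one. On the list, 7 of 14 measured genes were at least 2-fold higher in the CO hydrogel than in the untreated library, with a median log2 ratio of 1.06, and 6 of 13 in the hydrogel than in the untreated library, with a median of 0.98. These ratios share the untreated library. Between the CO hydrogel and the hydrogel library 1 of 14 was, with a median of 0.05. Mx2, a dynamin-like antiviral GTPase, stood at 87.2 CPM in the CO hydrogel, 49.6 CPM in the hydrogel and 6.01 CPM in the untreated library. Its capillary UMIs numbered 226, 112 and 7 in these libraries. Ifit2, an antiviral RNA-binding protein, stood at 254 CPM in the CO hydrogel, 119.6 CPM in the hydrogel and 32.6 CPM in the untreated library. Gbp2, an interferon-induced GTPase, stood at 114 CPM in the CO hydrogel, 123 CPM in the hydrogel and 39.5 CPM in the untreated library. Mx2, Ifit2 and Gbp2 were lowest in the untreated library. Log2 ratios of the CO hydrogel over the untreated library were 3.86 (95% interval 2.79 to 5.19) for Mx2, 2.96 (95% interval 2.49 to 3.47) for Ifit2 and 1.53 (95% interval 1.08 to 2.01) for Gbp2. Isg15, Mx1 and Oas1a were also at least 2-fold higher but over 5 times higher in another class, and Mx1 had 3 untreated UMIs. Rsad2 went the other way, at 32.4 CPM in the CO hydrogel, 27.9 CPM in the hydrogel and 49.0 CPM in the untreated library, and 87.7% of its untreated UMIs were in 1 barcode. Sele or Selp barcodes of the same libraries showed the same order for Mx2, at 42.7 CPM in the CO hydrogel, 38.2 CPM in the hydrogel and 2.93 CPM in the untreated library. Levels of the other list genes in that class are not given, so this describes Mx2 alone.

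Promoter windows of 3 of these genes are shown because they hold the core of the interferon-stimulated response element, searched on both strands as TTTC, 2 bases of any kind (NN) and TTTC. Windows span 250 bases before to 50 after the start in RefSeq on GRCr8, and capitals mark the matches. The motif was in 3.92% of 33469 rat promoter windows and in 7 of the 10 listed genes with a window among the 14 measured (Ifit3, Gbp2, B2m, Rsad2, Ifi27, Oas1a and Tap1). The list was chosen as interferon genes, so this share describes the list and not the libraries. Of the 7 genes at least 2-fold higher in the CO hydrogel than in the untreated library, 3 had a window. The motif was in 2 of these, Gbp2 and Oas1a. Oas1a held 2 overlapping matches, Gbp2 and Tap1 1 each, beginning 41, 31 and 121 bases before the start. A match describes the letters and shows no binding.
Oas1a, chr12:41330216-41330515, plus strand: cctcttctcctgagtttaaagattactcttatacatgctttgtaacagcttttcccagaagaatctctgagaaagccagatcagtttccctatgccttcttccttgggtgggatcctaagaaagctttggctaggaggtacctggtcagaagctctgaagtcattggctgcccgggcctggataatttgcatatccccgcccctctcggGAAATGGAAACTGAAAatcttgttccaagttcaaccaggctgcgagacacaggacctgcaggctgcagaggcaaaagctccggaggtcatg
Gbp2, chr2:234005477-234005776, plus strand: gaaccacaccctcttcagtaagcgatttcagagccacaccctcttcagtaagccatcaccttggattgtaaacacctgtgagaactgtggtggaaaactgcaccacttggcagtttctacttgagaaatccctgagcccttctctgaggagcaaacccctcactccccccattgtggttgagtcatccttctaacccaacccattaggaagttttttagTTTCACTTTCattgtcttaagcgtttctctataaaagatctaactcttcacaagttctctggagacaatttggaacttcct
Tap1, chr20:4668494-4668793, minus strand: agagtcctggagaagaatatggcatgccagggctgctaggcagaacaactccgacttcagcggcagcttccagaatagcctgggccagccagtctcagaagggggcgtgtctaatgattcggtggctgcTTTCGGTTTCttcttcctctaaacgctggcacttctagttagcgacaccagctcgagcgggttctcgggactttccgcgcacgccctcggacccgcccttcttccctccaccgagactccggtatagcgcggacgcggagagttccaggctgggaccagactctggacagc
Oas1a, a sensor of double-stranded RNA, stood at 35.1 CPM in the CO hydrogel, 27.0 CPM in the hydrogel and 12.0 CPM in the untreated library. Tap1, a subunit of the peptide transporter for MHC class I, stood at 62.5 CPM in the CO hydrogel, 71.8 CPM in the hydrogel and 32.6 CPM in the untreated library. Like Gbp2, both were lowest in the untreated library. Rsad2 and Ifit3 also hold the motif, and their log2 ratios of the CO hydrogel over the untreated library were -0.59 and -0.20.

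**Figure D4:**
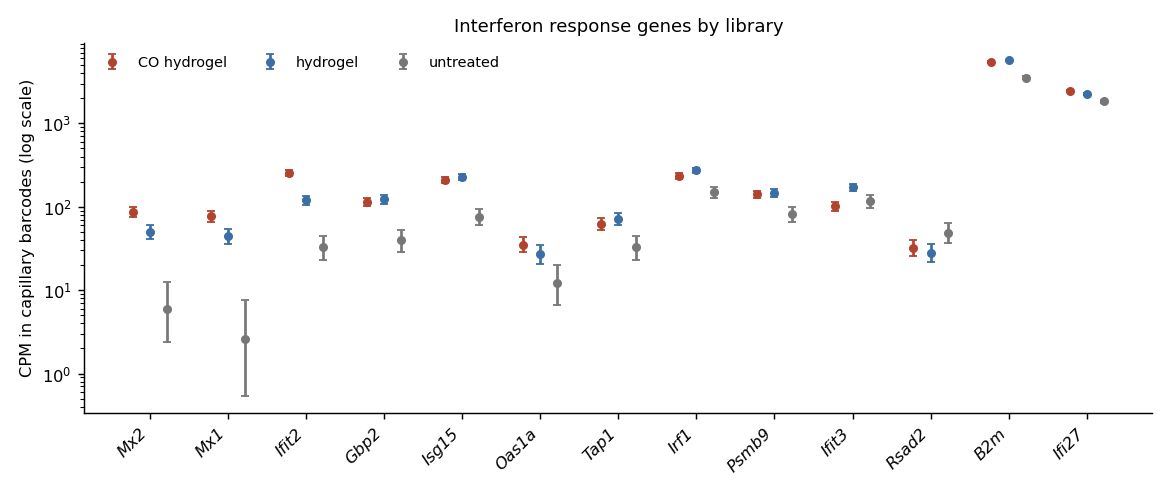
Level of 13 interferon response genes in capillary barcodes of the CO hydrogel, hydrogel and untreated libraries, in CPM on a log axis; points are summed levels and error bars exact Poisson 95% intervals. Mx2, Mx1, Ifit2, Gbp2 and Isg15 were lowest in the untreated library, and Rsad2 was highest there.

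Other named genes were also higher in the CO hydrogel library. Cst3, the protease inhibitor cystatin C, stood at 1880.0 CPM in the CO hydrogel, 746 CPM in the hydrogel and 424 CPM in the untreated library. Its level was highest in the CO hydrogel and lowest in the untreated library, with log2 ratios of 1.33 (95% interval 1.25 to 1.41) over the hydrogel and 2.15 (95% interval 2.02 to 2.29) over the untreated library. Cavin2, a caveolar coat protein, stood at 208 CPM in the CO hydrogel, 79.3 CPM in the hydrogel and 71.3 CPM in the untreated library, with a log2 ratio of 1.39 over the hydrogel library. Timp4, a metalloproteinase inhibitor, stood at 70.3 CPM in the CO hydrogel, 12.0 CPM in the hydrogel and 8.59 CPM in the untreated library. Sult1a1, a phenol sulfotransferase, stood at 52.5 CPM in the CO hydrogel, 8.42 CPM in the hydrogel and 11.2 CPM in the untreated library. For Cavin2, Timp4 and Sult1a1 the hydrogel and untreated levels were near each other. Further named increases of the CO hydrogel over the hydrogel library were Wipf3, Fcgrt, Cdk2ap2, Nr1h3 and Ifit2, with log2 ratios between 1.42 and 1.09. Over the untreated library they were Tnfsf10, Apol9a, Rnf213, RT1-T24-3, Ifi27l2b and Rgcc, between 2.92 and 1.89. As a mean of CPM per barcode, which weights barcodes equally, 8 of the 10 named increases over the hydrogel and 9 of the 10 over the untreated library were still at least 2-fold. The exception over the untreated library was Rnf213, whose log2 ratio of 2.37 became 0.06, and over the hydrogel library Cdk2ap2 became 0.93 and Nr1h3 0.95. Tnfsf10, the death ligand TRAIL, stood at 78.0 CPM in the CO hydrogel, 42.1 CPM in the hydrogel and 10.3 CPM in the untreated library.

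General capillary markers had no common direction between the CO hydrogel and hydrogel libraries, where 4 of 9 measured lay above 0 and 5 below, with a median log2 ratio of -0.06; Timp4 was at least 2-fold higher and Ramp3 at least 2-fold lower. In the CO hydrogel over the untreated library 7 of 9 lay above 0, with a median of 0.56. Fatty acid genes lay above 0 in each pair. All 8 measured were higher in the CO hydrogel than in the hydrogel library (median log2 ratio 0.43) and than in the untreated library (median 0.81), but only Lpl was past 2-fold, and Lpl was over 5 times higher in another class. Fabp4 stood at 13522 CPM in the CO hydrogel, 10907 CPM in the hydrogel and 6841 CPM in the untreated library, and Fabp5 at 927 CPM in the CO hydrogel, 709 CPM in the hydrogel and 664 CPM in the untreated library. Scarb1 stood at 510.3 CPM in the CO hydrogel, 321 CPM in the hydrogel and 317 CPM in the untreated library, and Tcf15 at 91.9 CPM in the CO hydrogel, 90.8 CPM in the hydrogel and 89.4 CPM in the untreated library. Tcf15 differed between the 3 libraries by less than its counting error.

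Sprouting genes differed in both directions. Esm1 stood at 57.9 CPM in the CO hydrogel, 149 CPM in the hydrogel and 145 CPM in the untreated library, a log2 ratio of -1.37 (95% interval -1.65 to -1.08) for the CO hydrogel over the hydrogel library, which was -0.68 as a mean of CPM per barcode. Kcne3 stood at 53.3 CPM in the CO hydrogel, 52.7 CPM in the hydrogel and 137 CPM in the untreated library. Adm stood at 177 CPM in the CO hydrogel, 95.3 CPM in the hydrogel and 232 CPM in the untreated library, so that the hydrogel library was lowest. Apln stood at 289.9 CPM in the CO hydrogel, 165 CPM in the hydrogel and 117 CPM in the untreated library, and Pgf at 189.5 CPM in the CO hydrogel, 173 CPM in the hydrogel and 85.9 CPM in the untreated library, both with the untreated library lowest. At least 3 of the 15 sprouting genes in the files were found in 42.5%, 48.0% and 43.0% of CO hydrogel, hydrogel and untreated barcodes thinned to 2000 UMIs (355, 254 and 100 barcodes), with intervals of 37.3% to 47.9%, 41.7% to 54.4% and 33.1% to 53.3%. Without thinning the shares were 59.8%, 63.8% and 65.7%. The intervals overlapped, and the part of RNA from other cells in these shares was not tested.

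Arterial genes were lower in the CO hydrogel than in the hydrogel library, with 9 of 11 measured below 0, 2 past 2-fold and a median log2 ratio of -0.64. Gja5 stood at 13.1 CPM in the CO hydrogel, 34.1 CPM in the hydrogel and 16.3 CPM in the untreated library, and Gja4 at 94.2 CPM in the CO hydrogel, 206 CPM in the hydrogel and 154 CPM in the untreated library. The ephrin ligand Efnb2 was at 120.1 CPM in the CO hydrogel, 226 CPM in the hydrogel and 162 CPM in the untreated library, and Cxcl12 at 395 CPM in the CO hydrogel, 749 CPM in the hydrogel and 461 CPM in the untreated library. The hydrogel library was highest for all 4. Without Rbp7-only barcodes Gja4 stood at 74.7 CPM in the CO hydrogel, 149 CPM in the hydrogel and 148 CPM in the untreated library, so that its hydrogel and untreated levels were near each other. Gja5 then stood at 2.62 CPM in the CO hydrogel, 4.43 CPM in the hydrogel and 2.72 CPM in the untreated library, with 6, 9 and 3 UMIs. Efnb2 and Cxcl12 were still highest in the hydrogel library, Efnb2 at 109 CPM in the CO hydrogel, 208 CPM in the hydrogel and 151 CPM in the untreated library and Cxcl12 at 359 CPM in the CO hydrogel, 585 CPM in the hydrogel and 449 CPM in the untreated library. As a mean of CPM per barcode the log2 ratio of Gja5 in the CO hydrogel over the hydrogel library was -0.72, against -1.38 from summed UMIs. At least 3 arterial genes were found in 20.3%, 28.7% and 36.0% of CO hydrogel, hydrogel and untreated barcodes thinned to 2000 UMIs, with intervals of 16.2% to 24.8%, 23.3% to 34.7% and 26.6% to 46.2%. Without thinning these shares were 44.5%, 55.7% and 54.7%. The CO hydrogel and untreated intervals did not overlap after thinning, while at 1000 UMIs the shares were 9.80%, 13.6% and 13.4% with overlapping intervals.

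Of 6 measured proliferation genes, 5 were lower in the CO hydrogel than in the hydrogel library. At least 2-fold lower were 3 of them, namely Ube2c, Top2a and Cdk1. Ube2c, a mitotic ubiquitin carrier, stood at 20.1 CPM in the CO hydrogel, 66.0 CPM in the hydrogel and 120.3 CPM in the untreated library. In the hydrogel and untreated libraries 34.2% and 45% of its UMIs lay in 1 barcode each, and as a mean of CPM per barcode the log2 ratio of the CO hydrogel over the hydrogel library was 0.06. Cdk1 stood at 17.0 CPM in the CO hydrogel, 39.0 CPM in the hydrogel and 64.4 CPM in the untreated library, and Mki67 at 39.0 CPM in the CO hydrogel, 45.6 CPM in the hydrogel and 62.7 CPM in the untreated library. At least 2 proliferation genes were found in 9.86%, 11.4% and 16% of CO hydrogel, hydrogel and untreated barcodes thinned to 2000 UMIs, with intervals of 6.96% to 13.4%, 7.78% to 15.98% and 9.43% to 24.7%, which overlapped. Without thinning they were 21.7%, 24.8% and 32.1%.

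Other decreases in the CO hydrogel library included secreted factors. Csf3 stood at 37.8 CPM in the CO hydrogel, 109 CPM in the hydrogel and 58.4 CPM in the untreated library, Stc1, a secreted glycoprotein, at 113 CPM in the CO hydrogel, 305 CPM in the hydrogel and 235 CPM in the untreated library, and Inhbb, a subunit of activin B, at 67.9 CPM in the CO hydrogel, 172 CPM in the hydrogel and 180.4 CPM in the untreated library. Ramp3 had a log2 ratio of -1.35 for the CO hydrogel over the hydrogel library. Samsn1, Cenpw and Sox13 were the remaining named decreases against the hydrogel library, with log2 ratios between -1.37 and -1.24. Fewer named decreases than increases were at least 2-fold as a mean of CPM per barcode: 3 of 10 against the hydrogel library, namely Samsn1, Inhbb and Sox13, and 4 of 10 against the untreated library, namely Cdk1, Npw, Inhbb and Esm1. Csf3 then had -0.70, Stc1 -0.90, Ramp3 -0.82 and Cenpw -0.58 against the hydrogel library. Npw, a neuropeptide precursor, stood at 29.0 CPM in the CO hydrogel, 37.2 CPM in the hydrogel and 104 CPM in the untreated library. Alcam, an adhesion molecule, had log2 ratios of -1.39 for the CO hydrogel and -1.0 for the hydrogel over the untreated library, and Casc4 had -1.45 and -1.74; both ratios share the untreated library. As a mean of CPM per barcode Alcam had -0.82 and -0.77, and Casc4 -0.44 and -1.56. Lyve1, a hyaluronan receptor of lymphatic vessels, stood at 25.9 CPM in the CO hydrogel, 53.2 CPM in the hydrogel and 181 CPM in the untreated library, and 52.5% of the hydrogel UMIs and 49.8% of the untreated UMIs lay in 1 barcode each. Cxcl9, an interferon-induced chemokine, stood at 315 CPM in the CO hydrogel, 382 CPM in the hydrogel and 127 CPM in the untreated library. Heme oxygenase and antioxidant genes, which metabolise heme and handle oxidants, had none of 13 past 2-fold between the CO hydrogel and hydrogel libraries. Of all genes compared, only 3.68% were past 2-fold in that pair. Hmox1, the enzyme that releases CO from heme, stood at 126 CPM in the CO hydrogel, 146 CPM in the hydrogel and 168 CPM in the untreated library. None of 16 respiratory chain genes was past 2-fold in any pair. Over all genes the shares past 2-fold were 3.68% (CO hydrogel over hydrogel), 7.64% (CO hydrogel over untreated) and 3.01% (hydrogel over untreated). Shares this small leave few of 16 genes past 2-fold. Of the 16, 14 lay below 0 in each pair. The median log2 ratios over all genes were -0.05, 0.06 and 0.10 in the same order of pairs.

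**Figure D5:**
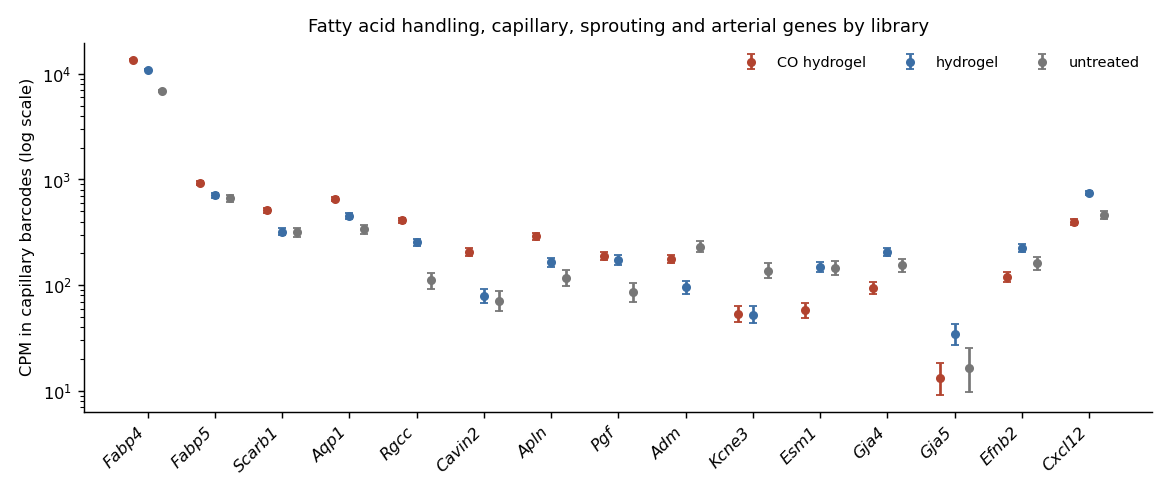
Level of 15 fatty acid, capillary, sprouting and arterial genes in capillary barcodes of the CO hydrogel, hydrogel and untreated libraries, in CPM on a log axis; points are summed levels and error bars exact Poisson 95% intervals. Rgcc, Aqp1 and Apln were highest in the CO hydrogel library, Esm1 lowest there, and Gja4, Gja5, Efnb2 and Cxcl12 highest in the hydrogel library.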

How the data were processed

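The authors deposited 1 matrix of UMI counts per library, made with Cell Ranger 6.0.1 per the file headers. Other versions stand in the submitters' processing notes: Seurat 4.2.0, DESeq 1.38.0, Cell Ranger 7.0.0 and the rn6 build. The deposited counts cover 32883 features, of which 18151 gene symbols were used under the names in the files. Barcodes under 500 UMIs or 300 genes, or with over 20% of UMIs from mitochondrial genes, were removed, which left 14925 CO hydrogel, 14346 hydrogel and 11965 untreated barcodes with median depths of 5820, 5622.5 and 2655 UMIs.

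Capillary and comparison barcodes were chosen by genes, not by clustering, with Python 3.11.15, numpy 2.4.6, scipy 1.17.1 and pandas 2.3.3; figures used matplotlib 3.10.9. The members and the 34 gene lists were chosen with earlier results of these data known. Raw counts were summed per library and class. Classes were compared with edgeR 4.0.16 in R 4.3.3 (TMM scaling, quasi-likelihood test, library as block, Benjamini-Hochberg adjustment); DESeq2 1.42.0 was an alternative. The library block pairs the classes because both come from the same library. Each SE was derived from the test, as the log2 fold change without its sign divided by the square root of the F statistic. Only 3 libraries stand as replicates, and p-values measure the difference between classes against its variation from library to library. Libraries, with 1 per group, were compared by CPM ratios without a test; exact Poisson, binomial and conditional binomial 95% intervals cover counting error only, and a count of 0 allows up to 3 counts.

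Named genes were the 10 largest changes per direction past the threshold with the same direction in all 3 libraries, or, between libraries, the 10 with the largest ratios that were found in at least 5% of barcodes of a library and were not over 5 times higher in another class. List members were named with their lists, and genes of the subset comparison after their values were seen. A few genes that meet this rule are not reported here. Doublets were not removed. As an alternative, Scrublet in scanpy 1.11.5 ranked barcodes and the highest 0.8% per 1000 barcodes were left out, among them 33 CO hydrogel, 28 hydrogel and 26 untreated capillary barcodes.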

Additional observations from a re-analysis of the deposited data

Results flagged for a closer look

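Of 26 lists with at least 6 measured genes, 19 had a median log2 ratio of capillary over another endothelial class with opposite signs in different libraries. Those whose medians reached at least 0.25 in both directions are given here, 2 lists against Sele or Selp and 4 against other endothelial barcodes, 5 lists in all. With 1 library per group the difference between libraries was not tested. Against Sele or Selp barcodes, the fatty acid list had medians of 0.31 in the CO hydrogel, 0.12 in the hydrogel and -0.58 in the untreated library. Fabp4 and Scarb1 belong to this list. Proliferation genes had medians of -0.51, 0.57 and 0.56 against Sele or Selp barcodes, and -0.76, 0.40 and 0.65 against other endothelial barcodes, in the CO hydrogel, hydrogel and untreated libraries. None of the 14 proliferation genes passed edgeR's test in either comparison, where 4 and 1 of them had an unadjusted p under 0.05, and DESeq2 also called none. Against other endothelial barcodes, junction genes had medians of 0.13, 0.58 and -0.36, interferon genes 0.83, -0.31 and 0.054, and keratinocyte markers 0.59, 2.13 and -0.86 in the same order of libraries.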

How the results depend on the processing

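Capillary shares of all barcodes moved beyond their intervals under stricter rules: with at least 3 of the 7 endothelial genes they were 2.99% in the CO hydrogel, 1.95% in the hydrogel and 0.944% in the untreated library, with at least 2 UMIs of the markers 2.65%, 1.88% and 0.886%, and without Rbp7-only barcodes 2.99% and 1.96% in the CO hydrogel and hydrogel libraries; thinning to 1000 UMIs gave 1.95% in the hydrogel and 0.863% in the untreated library. The order of the libraries was the same in each. For the CO hydrogel over the hydrogel library, the count of higher genes was 93 with at least 3 endothelial genes, 559 with at least 20 UMIs and 2384 with no minimum and 0.5 added, and that of lower genes 224 and 1445 under the last pair of settings. Over the untreated library the CO hydrogel counts under that pair were 1038 and 2469 higher and 236 and 1393 lower, and the hydrogel counts 564 and 1787 higher and 135 and 1024 lower. Mean CPM per barcode gave 83 lower for the CO hydrogel and 165 higher and 59 lower for the hydrogel over the untreated library. With shared barcode sequences left out the counts were 152 and 35, 293 and 49, and 103 and 24. Against Sele or Selp barcodes, DESeq2 called 105 higher and 132 lower, no filter on low counts 514 and 454, and the fit without the replicate block 44 and 46; leaving out 1 library gave 217 to 340 higher and 186 to 294 lower, the lowest lower count without the hydrogel library. Against other endothelial barcodes, DESeq2 called 69 higher, no filter 424 and 532, at least 3 endothelial genes 61 and 70, and no replicate block 4 and 3; leaving out 1 library gave 45 to 185 higher and 132 to 310 lower. Of the named and listed genes that passed, 23 of 91 and 4 of 69 were tested and passed under every alternative in these comparisons. Signs turned for Ube2c (0.057, CO hydrogel over hydrogel) and the macrophage marker median (-0.015, CO hydrogel over untreated) as mean CPM per barcode, for Mecom (-0.027) against Sele or Selp barcodes without Gpihbp1 and Rbp7, and for Cxcl2 (0.53) against other endothelial barcodes with at least 3 endothelial genes. The causes were not tested. Capillary UMIs in the untreated library, the fewest of the 3, limit its precision.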

Other observations

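Heme and redox genes differed between capillary and Sele or Selp barcodes. Of 14 measured, Hmox1 rose, with a log2 fold change of 0.72, and Sod2 (-0.75), Gpx1 (-0.49), Txnrd1 (-0.49) and Cat (-0.47) fell in edgeR's quasi-likelihood test with Benjamini-Hochberg adjustment. Hmox1 stood at 126, 146 and 168 CPM in capillary barcodes of the CO hydrogel, hydrogel and untreated libraries, against 79.5, 92.9 and 90.8 CPM in Sele or Selp barcodes of the same libraries, so all 3 capillary values lay above all Sele or Selp values. Against other endothelial barcodes Hmox1 instead fell. Its log2 fold changes there ran from -1.49 to -0.18 over 12 alternatives, and 2 of these lost the call. Hmox1, Sod2 and Gpx1 were over 5 times higher in another cell class, and the part of RNA from those cells was not tested. Of 15 BMP and TGF-beta genes, the BMP target Id1 (0.68) rose with Tgfbr2 and Smad1, and the coreceptor Eng (-0.68) fell with Bmp4.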
